A study of Mus musculus with 9 samples.

Results

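The BCL2 family decides, at the outer mitochondrial membrane, whether a cell survives or enters apoptosis. The 10 genes described here are the rows of the deposited table whose mouse Ensembl identifiers map to Bcl2, Bcl2l1, Bcl2l11, Bcl2a1a, Bcl2a1b, Bcl2a1d, Mcl1, Bax, Bak1 and Bid. All 10 were found among the 12204 listed genes. They were measured in bone marrow-derived macrophages of C57/Bl6J mice, differentiated over 6 days in medium with 20% supernatant of L929 cells, a fibroblast line that secretes macrophage growth factor. The 3 groups had 3 libraries each: untreated cells (UT), cells given 10 ng/ml lipopolysaccharide (LPS, the bacterial ligand of Toll-like receptor 4) for 4 h, and cells given 50 µM BMS 303141, an inhibitor of ATP-citrate lyase, for 1 h before the same LPS treatment (LPS + BMS). All of these libraries came from the same strain, and each one with the inhibitor also had LPS. The labels name no vehicle, and they leave unsaid whether replicates came from different mice or dishes. The p-values therefore reflect variation among the libraries at hand, and part or all of it may be technical.

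In this family, guardians such as BCL-2, BCL-XL, MCL-1 and A1 bind and restrain the effectors BAX and BAK, which otherwise form pores that release cytochrome c. BH3-only proteins such as BIM and BID sense stress or death receptor signals and bind guardians or activate the effectors. In macrophages and other myeloid cells, inflammatory signals through NF-kB are known to raise the transcription of the A1 genes, and MCL-1 is needed for the survival of many blood cells. Here Bcl2, Bcl2l1 (BCL-XL), Mcl1 and the Bcl2a1 genes (A1) are grouped as 6 guardians, Bax and Bak1 as 2 effectors, and Bid and Bcl2l11 (BIM) as 2 BH3-only genes.

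The 3 Bcl2a1 genes are near-identical copies on chromosome 9, and their sequences are shown because the largest changes in the family fell on them. In GRCm38 (GENCODE M21) Bcl2a1a (ENSMUSG00000102037) lies at chr9:88956900-88962419 on the plus strand, Bcl2a1b (ENSMUSG00000089929) at chr9:89199209-89207827 on the plus strand, and Bcl2a1d (ENSMUSG00000099974) at chr9:88723285-88731914 on the minus strand. Stretches just upstream of the annotated starts, from RefSeq sequence of GRCm38.p6, were 142 bases at chr9:88956714-88956855 (plus) for Bcl2a1a, 142 bases at chr9:89199023-89199164 (plus) for Bcl2a1b and 136 bases at chr9:88731915-88732050 (minus) for Bcl2a1d. They are written 5′ to 3′, and the capitals mark GAGGAAGT, a core motif of PU.1, the transcription factor of the myeloid lineage.
Bcl2a1a upstream: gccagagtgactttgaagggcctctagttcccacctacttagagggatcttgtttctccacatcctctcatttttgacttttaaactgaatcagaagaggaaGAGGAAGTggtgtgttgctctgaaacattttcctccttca
Bcl2a1b upstream: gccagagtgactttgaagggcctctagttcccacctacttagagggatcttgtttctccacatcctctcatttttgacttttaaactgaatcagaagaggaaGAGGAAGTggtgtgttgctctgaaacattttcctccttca
Bcl2a1d upstream: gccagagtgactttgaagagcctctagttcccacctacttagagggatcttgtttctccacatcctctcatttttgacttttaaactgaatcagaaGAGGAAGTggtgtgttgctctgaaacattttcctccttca
The Bcl2a1a and Bcl2a1b stretches were 100.0% identical, and each matched Bcl2a1d at 135 of 142 aligned positions (95.1%), with 1 mismatch and a gap of 6. Promoter windows from 250 bases before to 50 after the start were held for all 10 members (13 windows). GAGGAAGT, searched on both strands, was found in the windows of Bcl2a1a, Bcl2a1b, Bcl2a1d and Bak1 and in 3.20% of all 32851 windows. The NF-kB consensus was found in 1 window of Bcl2l1 and in 8.46% of all windows. TGACTCA (the AP-1 site), the interferon-stimulated response element and TATAAA were in no member's window, against 5.20%, 3.44% and 13.6% of all. These are matches of letters and say nothing about binding.

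Within the 516 coding bases, 12 positions differed among the 3 copies. The 60 bases from the start codon held 6 of these, shown in capitals (GENCODE M21 transcripts).
Bcl2a1a coding bases 1 to 60: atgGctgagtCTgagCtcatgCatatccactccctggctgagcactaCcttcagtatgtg
Bcl2a1b coding bases 1 to 60: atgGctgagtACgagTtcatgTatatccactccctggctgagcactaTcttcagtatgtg
Bcl2a1d coding bases 1 to 60: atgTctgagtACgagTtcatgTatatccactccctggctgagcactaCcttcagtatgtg
Reads of this assay come from transcript 3′ ends, where the copies were as alike. The last 300 bases were 99.3% identical between Bcl2a1a and Bcl2a1d, 98.0% between Bcl2a1b and Bcl2a1d, and 97.4% between Bcl2a1a and Bcl2a1b. Of the 50-base windows there, 94.8% of those of Bcl2a1d, 74.1% of those of Bcl2a1b and 64.5% of those of Bcl2a1a also occurred in another Bcl2a1 transcript. With 75-base windows the shares were 94.2%, 60.2% and 49.6%. Reads from such windows can be lost or credited to another copy, so the single levels of the 3 genes are uncertain. Lost reads would also lower their sum. The gene span of Bcl2a1b, introns included, also shares 8449 bases with that of Gm29094, annotated as a protein-coding gene on the same strand. The span of Bcl2a1d shares 8630 bases with that of Gm10634, annotated as antisense to it. The transcripts of Bcl2a1b and Bcl2a1d have only 817 and 863 bases, and the overlap of exons was not measured. The sources used here do not say how reads in these overlaps were counted.

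The deposited values are log2 CPM (read counts scaled to one common library total), quantile-normalised by the authors, and all differences below are on that log2 scale. Value steps corresponded to about 1830000 to 5050000 reads on listed genes per library (26.8 to 72.7 reads at the median gene). LPS replicate 1 was the shallowest (about 1830000 reads) and departed from the other LPS libraries in several members. Of the check genes, Tnf was at 3.22 in untreated cells, 9.37 with LPS and 8.27 with LPS + BMS (means of 3). Il12b was at -1.30, 9.79 and 6.94 in the same order. Both passed at an adjusted p under 0.05 (limma) as higher with LPS, and as lower with LPS + BMS than with LPS. Cx3cr1 was at 8.63, 3.97 and 3.38, and passed as lower with LPS but not between LPS + BMS and LPS (adjusted p = 0.0908, limma). Acly, which encodes the inhibitor's target, was at 5.41, 5.16 and 5.07 and passed in no comparison. All 10 macrophage markers were listed, with a summed level of 9000 to 9550 CPM in untreated, 4450 to 5340 with LPS and 5250 to 5340 with LPS + BMS libraries. Of 12 neutrophil markers 4 were listed, and Ly6g, Elane, Mpo and Camp were not among them; their sum was 12.7 to 36.0, 45.5 to 74.8 and 195 to 285 CPM. S100a8 carried most of that sum (means of 3.30, 5.46 and 7.75 log2 CPM). The dendritic cell, lymphocyte and mast cell lists each had 1 listed gene (Itgax, Lck and Hdc), the stromal list had 3 and the erythroid list 0. The part of other cells in the results below was not tested, and in bulk libraries fewer cells of a type and less RNA per cell cannot be told apart.

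**Figure D1:**
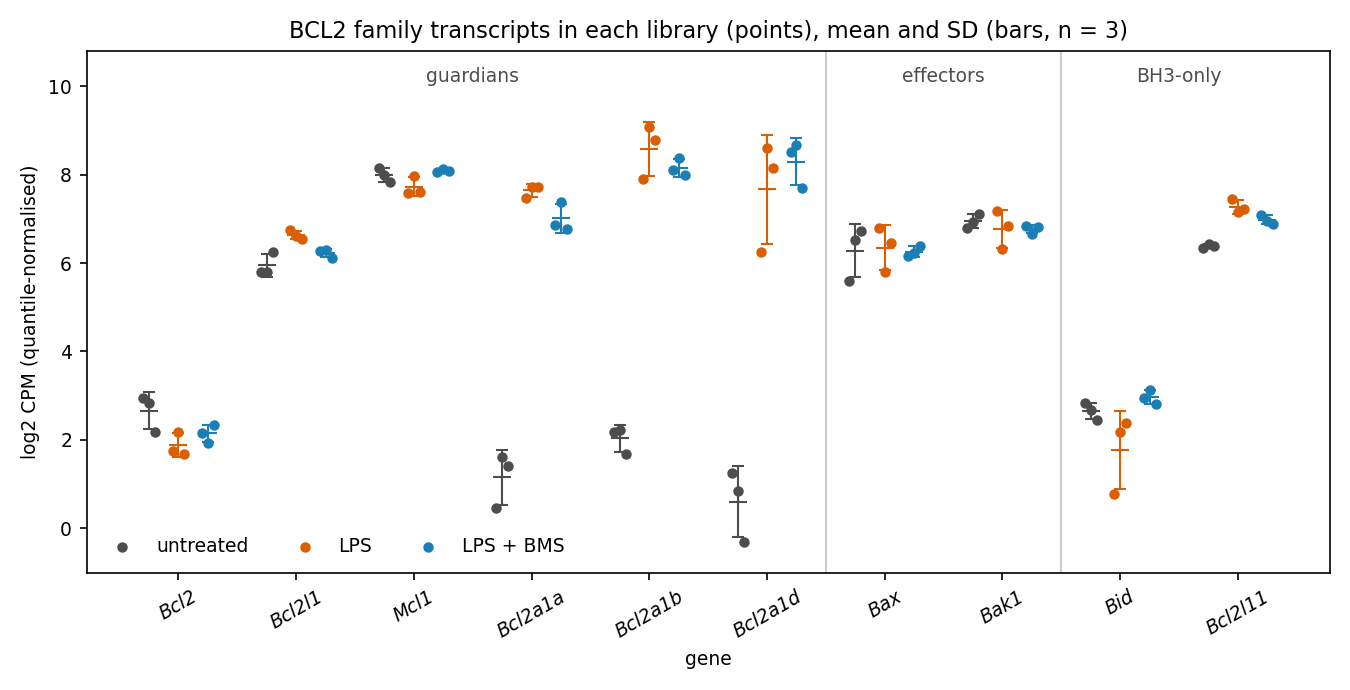
Quantile-normalised log2 CPM (y axis) of the 10 genes (x axis) in each library, as points coloured by group, with bars for the mean and SD of 3 libraries. The 3 Bcl2a1 genes lie between -0.30 and 2.22 in untreated libraries and between 6.26 and 9.07 with LPS. The ranges of Mcl1, Bax and Bak1 overlap between untreated and LPS libraries.

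LPS raised all 3 Bcl2a1 genes, from percentiles of 2.88 to 25.3 among the listed genes to percentiles of 85.0 to 98.8, and raised Bcl2l1 and Bcl2l11 less than 2-fold each. In the model across all tested genes (limma, Benjamini-Hochberg adjusted p under 0.05), 5 of the 10 members were higher with LPS and 0 lower, where 21.5% of the 12196 tested genes were higher, 25.4% lower and 47.0% called in either direction. The share of members called was thus close to that of all genes. For 6 members the untreated and LPS values did not overlap (52.6% of all tested genes), and 7 had an unadjusted p under 0.05 (53.3%). Without LPS replicate 2, 8 members were called, with Bcl2, Mcl1 and Bid lower. The members' median difference was 0.38, against -0.06 over all tested genes.

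Bcl2a1b was at 2.19, 2.22 and 1.69 in the untreated libraries, and at 7.89, 9.07 and 8.79 in LPS replicates 1 to 3. Every LPS library lay above every untreated one, and the gene moved from percentile 18.4 to 25.3 of the listed genes to percentile 96.0 to 98.8. The difference was 6.55 (SE 0.25; adjusted p = 1.8e-10, limma), a 93.5-fold rise.

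Bcl2a1a was at 0.45, 1.61 and 1.40 in untreated and at 7.47, 7.73 and 7.73 in LPS libraries, a difference of 6.49 (SE 0.26; adjusted p = 2.79e-10, limma). The LPS libraries differed among themselves by less than those of any other Bcl2a1 gene, with an SD of 0.15.

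Bcl2a1d was at 1.26, 0.85 and -0.30 in untreated and at 6.26, 8.59 and 8.15 in LPS libraries, a difference of 7.06 (SE 0.51; adjusted p = 1.05e-07, limma). LPS replicate 1 was the low one of its group, and without it the difference was 7.76. The untreated values of the 3 genes rested on about 2.62 to 23.1 reads each, so the sizes of these rises are imprecise. Summed over the 3 copies, the level was 6.69 to 9.50 CPM in untreated and 492 to 1130 CPM in LPS libraries.

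Bcl2l1, which encodes the guardian BCL-XL (ENSMUSG00000007659, chr2:152780668-152831728, minus strand), was at 5.79, 5.80 and 6.25 in untreated and at 6.74, 6.62 and 6.54 in LPS libraries. The groups did not overlap, and the difference was 0.69 (95% interval 0.38 to 0.99; adjusted p = 0.00139, limma), a 1.61-fold rise. Its call held without any single library, with differences of 0.61 to 0.84.

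Bcl2, the founding guardian (ENSMUSG00000057329, chr1:106538178-106714274, minus strand), was scarce, at 2.95, 2.84 and 2.18 in untreated and 1.75, 2.19 and 1.69 in LPS libraries. About 6.19 to 39.1 reads stood behind these values, and the groups overlapped through the lowest untreated and the highest LPS library. The difference of -0.78 (95% interval -1.44 to -0.12) missed the threshold (limma, adjusted p = 0.051). It passed without a mean trend in the variance (adjusted p = 0.029, limma), with weights per library (-0.98, adjusted p = 0.00428, limma), without untreated replicate 3 (-1.02) and without LPS replicate 2 (-0.94).

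Mcl1, whose protein is a short-lived guardian (ENSMUSG00000038612, chr3:95658788-95663176, plus strand), was the most abundant member in untreated cells. It was at 8.15, 7.99 and 7.83 there and at 7.59, 7.97 and 7.61 with LPS. The ranges overlapped, and the difference of -0.26 (95% interval -0.53 to 0.00) missed the threshold (limma, adjusted p = 0.0976). It passed with weights per library (-0.33) and without LPS replicate 2 (-0.39).

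The effectors Bax and Bak1 showed no difference that passed the test. Bax (ENSMUSG00000003873, chr7:45461697-45466898, minus strand) was at 5.60, 6.51 and 6.73 in untreated and 6.80, 5.79 and 6.46 in LPS libraries, so both groups spanned about the same range. Its difference was 0.07 (95% interval -0.53 to 0.67; adjusted p = 0.859, limma). Bak1 (ENSMUSG00000057789, chr17:27019810-27029009, minus strand) was at 6.80, 6.92 and 7.11 in untreated and 7.17, 6.32 and 6.83 in LPS libraries, a difference of -0.17 (95% interval -0.56 to 0.21; adjusted p = 0.45, limma). The intervals allow changes of up to about these bounds. The gene span of Bax, introns included, overlaps that of Gm45808, on the same strand, by 915 bases. Bak1 lies within Ggnbp1, a gene of the opposite strand with 0.31 to 2.80 log2 CPM in the untreated and LPS libraries, and the strand setting of the counting is not given in the sources used here.

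Among the BH3-only genes, Bcl2l11, which encodes BIM (ENSMUSG00000027381, chr2:128126038-128162547, plus strand), rose with LPS. It was at 6.35, 6.44 and 6.39 in untreated and 7.44, 7.15 and 7.22 in LPS libraries. No values overlapped, and the difference was 0.88 (95% interval 0.63 to 1.13; adjusted p = 3.25e-05, limma), a 1.84-fold rise that stayed between 0.79 and 0.94 when single libraries were left out. Bid, whose protein is cleaved by caspase-8 and so links death receptors to mitochondria (ENSMUSG00000004446, chr6:120891930-120916853, minus strand), was at 2.83, 2.68 and 2.46 in untreated and 0.77, 2.19 and 2.38 in LPS libraries. All LPS values lay below all untreated ones, but the difference of -0.88 (95% interval -1.69 to -0.07) missed the threshold (limma, adjusted p = 0.0714). LPS replicate 1 held about 3.13 reads of Bid. Without it the difference was -0.37, and it passed without LPS replicate 2 (-1.08, adjusted p = 0.0489, limma) or LPS replicate 3 (-1.17, adjusted p = 0.0306, limma). The 3′ end of Bid overlaps that of Bcl2l13, on the opposite strand, by 913 bases. Bcl2l13 was at 4.43 to 4.95 in untreated, 3.43 to 3.88 in LPS and 3.28 to 3.64 in LPS + BMS libraries, and whether its reads entered the count of Bid was not tested.

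**Figure D2:**
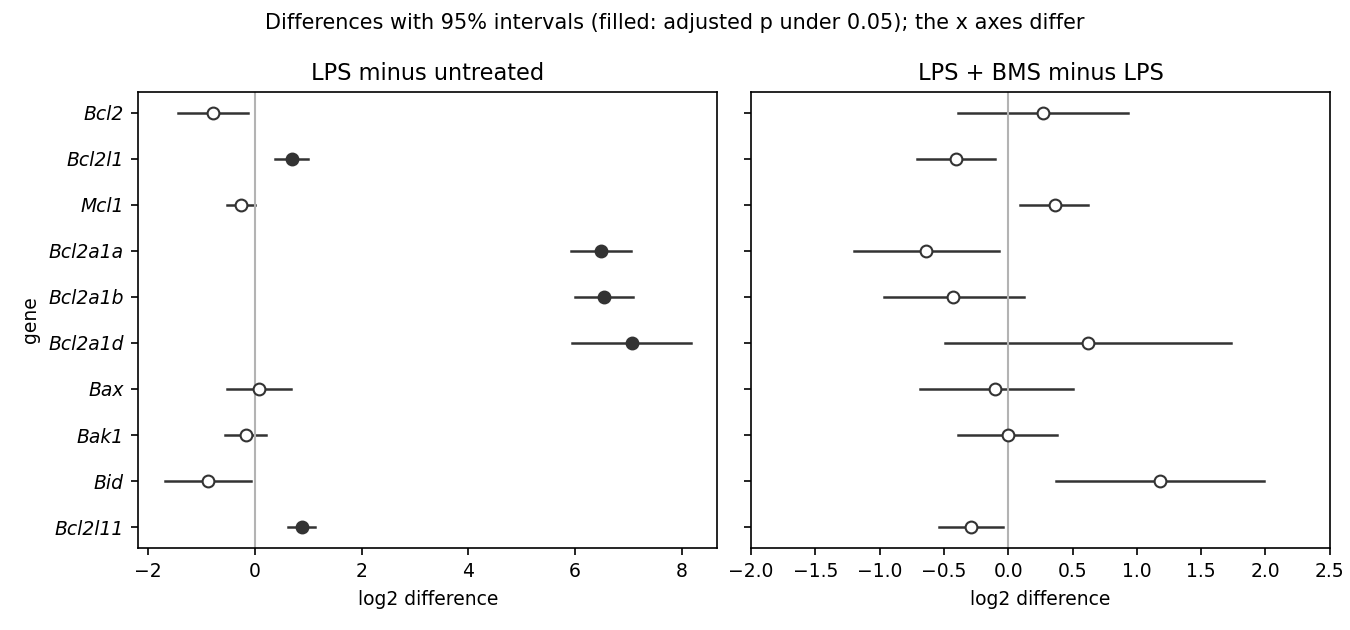
Log2 differences (x axes, with different ranges) of the 10 genes (y axis), LPS minus untreated on the left and LPS + BMS minus LPS on the right, with 95% intervals as lines and filled points for an adjusted p under 0.05. On the left the 3 Bcl2a1 genes lie at 6.49 to 7.06 and Bcl2l1 and Bcl2l11 at 0.69 and 0.88; on the right no point is filled.

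The makeup of the guardian transcripts shifted from Mcl1 to the Bcl2a1 genes. Reads of 3′ ends do not scale with transcript length, so these CPM are compared between genes without a length correction, although priming may differ between genes. Of the summed guardian CPM, Mcl1 made up 79.9%, 77.9% and 72.2% in untreated and 24.3%, 16.9% and 15.9% in LPS libraries. The Bcl2a1 genes made up 2.35%, 2.91% and 2.12% in untreated and 61.9%, 76.2% and 76.3% in LPS libraries. Any reads lost because the Bcl2a1 copies share sequence would lower the Bcl2a1 shares and raise those of Mcl1, and this was not measured. The guardian sums and ratios given next carry the same limit. With LPS + BMS the Bcl2a1 genes made up 68.6%, 71.5% and 62.3%, a range that overlaps that of LPS.

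The guardian sum itself was 315 to 355 CPM in untreated, 795 to 1490 CPM in LPS and 912 to 1270 CPM in LPS + BMS libraries. The effector sum was 160 to 245, 135 to 256 and 176 to 197 CPM, with overlapping ranges. The sum of the 2 BH3-only members, Bid and Bcl2l11, was nearly all Bcl2l11, at 88.7 to 93.2, 146 to 175 and 125 to 144 CPM. The 8 other BH3-only genes and relatives in the table had a larger sum, which was lower with LPS. It was 311 to 376, 258 to 268 and 274 to 313 CPM, so the rise with LPS is not one of all BH3-only transcripts. The most abundant of these 8 were Becn1 and Bad, at means of 7.28 and 6.87 log2 CPM in untreated cells. With LPS Bad was lower by 0.56 (adjusted p = 0.0201, limma), and Becn1 did not pass (-0.28, adjusted p = 0.0797, limma). Among all 8, 2 were called higher with LPS and 3 lower, so the sum does not speak for each gene. Guardian CPM per effector CPM was 1.29 to 2.22 in untreated libraries. It was 3.11, 11.0 and 6.09 in LPS replicates 1 to 3, all above the untreated range. With LPS + BMS it was 4.63 to 7.21, within the LPS range. These sums are descriptions of transcript levels, and no test was made on them.

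**Figure D3:**
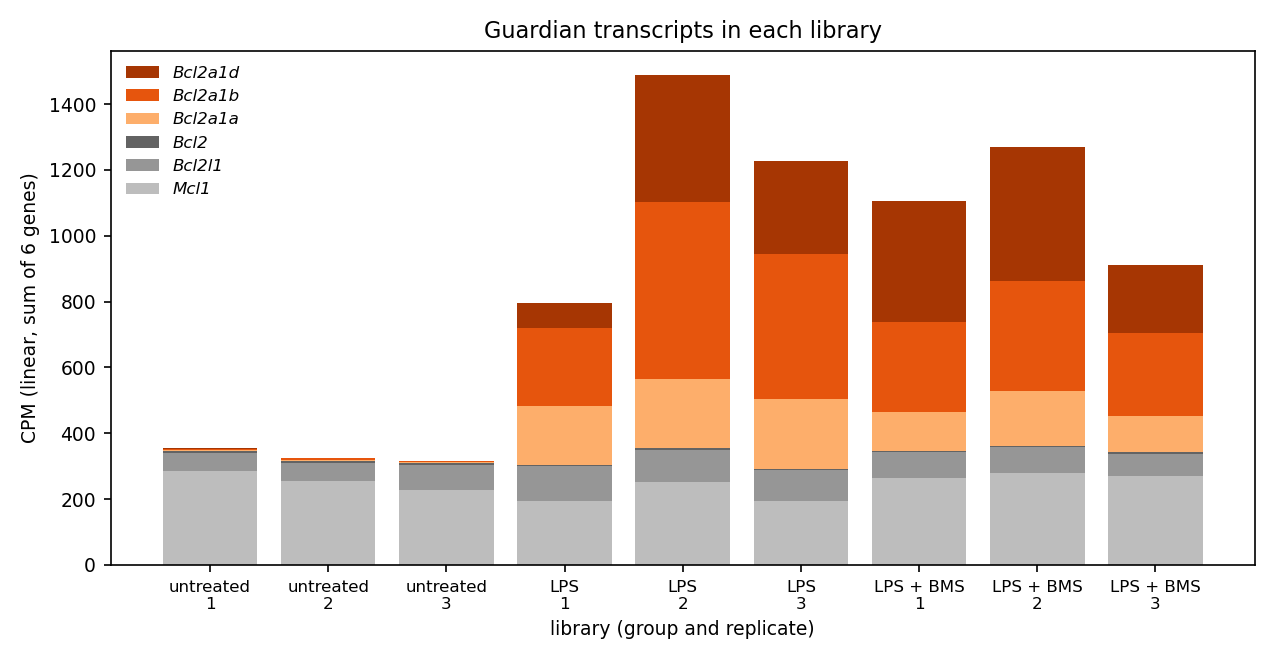
Summed CPM (y axis, linear) of the 6 guardian genes in each of the 9 libraries (x axis), stacked by gene. The untreated bars reach 315 to 355 and are mostly Mcl1, and the LPS and LPS + BMS bars reach 795 to 1490 and are mostly Bcl2a1 genes.

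In untreated cells the order of mean levels ran from Mcl1 (7.99) through Bak1 (6.95), Bcl2l11 (6.39), Bax (6.28) and Bcl2l1 (5.95) to Bcl2 and Bid (both 2.66) and then Bcl2a1b (2.03), Bcl2a1a (1.15) and Bcl2a1d (0.61). The ranges of Bcl2l11 and Bax, of Bax and Bcl2l1, of Bcl2 and Bid, and of Bcl2a1a and Bcl2a1d overlapped. With LPS the 4 most abundant were Bcl2a1b (8.58), Mcl1 (7.73), Bcl2a1d (7.67) and Bcl2a1a (7.64), whose neighbours in that order had overlapping ranges. Bcl2 (1.88) and Bid (1.78) came last. With LPS + BMS the order began with Bcl2a1d (8.29), Bcl2a1b (8.16) and Mcl1 (8.08), again with overlapping neighbours, and Bid (2.96) lay above Bcl2 (2.15) without overlap.

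By the smallest root mean square difference of centred log2 values over the 9 libraries, the genes most like Bcl2a1d were Socs1 (0.54), Cxcl1 (0.57) and Rnd1 (0.58). Those most like Bcl2a1b were Dusp2 (0.37), Clec4e (0.37) and Ccl4 (0.40), and those most like Bcl2a1a were Col27a1 (0.33), Adm (0.34) and Cdc42ep2 (0.35). None of the 3 copies was among the 3 nearest genes of another. Low untreated reads, LPS replicate 1 and reads shared between copies all enter these distances. Whether the patterns of the copies truly differ was not tested.

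With BMS 303141 before LPS, no member was called against LPS alone. In the limma model 0 of 10 passed in either direction, where 0.959% of tested genes were higher, 1.16% lower and 2.12% called in all (117 higher and 141 lower; 56 and 115 when libraries were centred on ribosomal protein genes). At an unadjusted p under 0.05 there were 5 members, namely Bid, Mcl1, Bcl2l1, Bcl2l11 and Bcl2a1a, against 14.9% of all tested genes. The same 5 were those whose groups did not overlap, against 21.4% of all genes. The members' median difference was -0.05 and that of all tested genes 0.00.

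Mcl1 was at 8.05, 8.13 and 8.07 with LPS + BMS, all above the LPS libraries at 7.59, 7.97 and 7.61. The difference was 0.36 (95% interval 0.09 to 0.62; adjusted p = 0.188, limma), and it passed with weights per library (0.41, adjusted p = 0.0154, limma). Bcl2l1 was at 6.27, 6.29 and 6.12 with the inhibitor, all below the LPS libraries, a difference of -0.41 (95% interval -0.71 to -0.10; adjusted p = 0.191, limma). Bcl2l11 was likewise lower in every library, at 7.09, 6.96 and 6.89, with a difference of -0.29 (95% interval -0.54 to -0.04; adjusted p = 0.254, limma). None of these 3 differences passed the test in the model as fitted, and each of the 3 intervals excludes 0 only before adjustment over all genes.

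Bid was at 2.95, 3.13 and 2.81 with LPS + BMS, above every LPS library. Its difference of 1.18 (95% interval 0.37 to 1.99; adjusted p = 0.146, limma) had the smallest unadjusted p of the members, and it was 0.68 without LPS replicate 1. Bcl2 was at 2.16, 1.94 and 2.34, overlapping the LPS libraries, with a difference of 0.27 (95% interval -0.39 to 0.93). Bax was at 6.15, 6.23 and 6.39 and Bak1 at 6.83, 6.66 and 6.82, both within the LPS range. Their differences were -0.10 (95% interval -0.69 to 0.50) for Bax and 0.00 (95% interval -0.39 to 0.38) for Bak1.

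Bcl2a1a was at 6.87, 7.38 and 6.77 with the inhibitor, below every LPS library, with a difference of -0.64 (95% interval -1.20 to -0.07; adjusted p = 0.273, limma). Bcl2a1b was at 8.10, 8.38 and 7.98, a difference of -0.43 (95% interval -0.97 to 0.12; adjusted p = 0.461, limma). Its groups overlapped only through LPS replicate 1, and without that library the difference was -0.77 and passed the test (adjusted p = 0.0389, limma); it also passed with weights per library (-0.63, adjusted p = 0.0222, limma). Bcl2a1d was at 8.52, 8.67 and 7.69, a difference of 0.62 (95% interval -0.49 to 1.73; adjusted p = 0.61, limma) that turned to -0.08 without LPS replicate 1. The sum of the 3 copies was 568 to 907 CPM, within the LPS range of 492 to 1130 CPM.

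Whether the copies moved by unequal amounts was asked from their differences within each library, with two-sided exact permutation tests over 9 comparisons; 3 libraries against 3 cannot give a p below 0.1. Bcl2a1d minus Bcl2a1a was -1.21, 0.86 and 0.42 in LPS replicates 1 to 3 and 1.65, 1.28 and 0.92 with LPS + BMS. The groups did not overlap, and the means differed by 1.26 (exact p = 0.1, adjusted 0.225; 0.64 without LPS replicate 1). Bcl2a1d minus Bcl2a1b was -1.63, -0.48 and -0.64 with LPS and 0.41, 0.29 and -0.29 with LPS + BMS. Again no values overlapped, and the means differed by 1.05 (exact p = 0.1, adjusted 0.225; 0.69 without LPS replicate 1). Bcl2a1b minus Bcl2a1a differed by 0.21 between these groups (exact p = 0.7). Between LPS and untreated libraries the 3 differences were 0.06 to 0.57, with exact p of 0.3 to 0.9. Since 94.8% of the 50-base windows at the end of Bcl2a1d also occur in a paralogue, how far the counting set these differences was not tested.

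**Figure D4:**
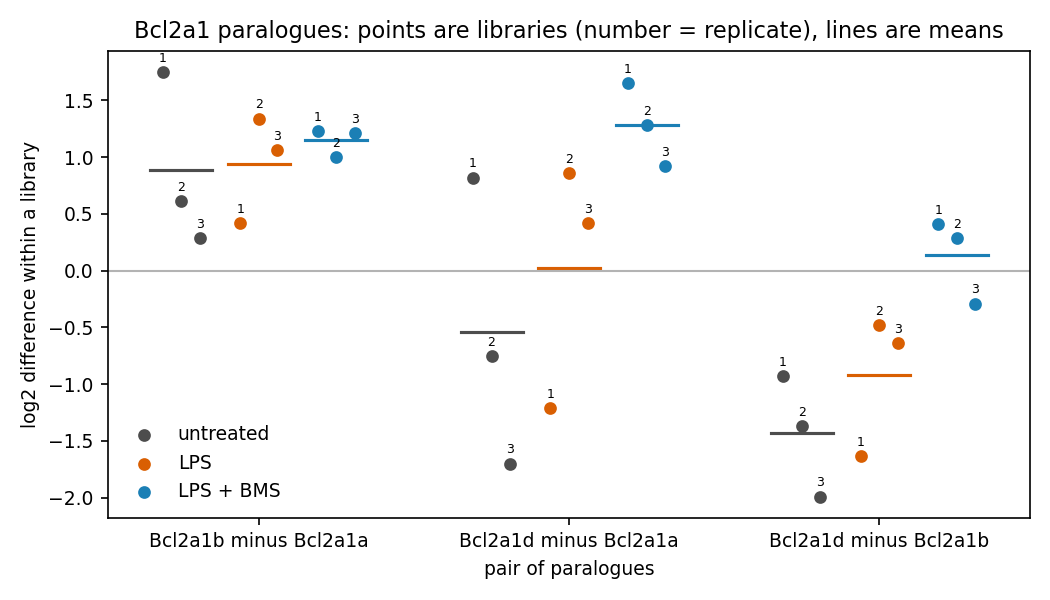
Log2 differences within a library (y axis) for the 3 pairs of Bcl2a1 paralogues (x axis), with points for libraries, in group colours with their replicate numbers, and lines for group means. Bcl2a1d minus Bcl2a1a lies at 0.92 to 1.65 with LPS + BMS and at -1.21 to 0.86 with LPS, where LPS replicate 1 is the lowest.

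Against untreated cells, LPS + BMS gave 4 members higher and 0 lower, where 21.5% of tested genes were higher, 25.6% lower and 47.1% called in either direction. The same number, 4, had an unadjusted p under 0.05 (54.0% of all tested genes), and 4 had groups that did not overlap (59.4%). This comparison and that of LPS share the untreated libraries, so the values are given side by side. Bcl2a1a was higher by 5.86 (6.49 with LPS alone), Bcl2a1b by 6.12 (6.55), Bcl2a1d by 7.68 (7.06) and Bcl2l11 by 0.59 (0.88), with adjusted p of 7.89e-10, 3.7e-10, 4.51e-08 and 0.000961 (limma). Bcl2l1 was at 0.28 (95% interval -0.03 to 0.59; adjusted p = 0.123, limma) against 0.69 with LPS alone. It passed with weights per library (0.36, adjusted p = 0.0125, limma) and without untreated replicate 3 (0.43, adjusted p = 0.0162, limma). The remaining members were between -0.51 (Bcl2) and 0.30 (Bid), and none passed.

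Other genes of the cell death pathway were read from 6 lists. Their counts with LPS stand beside 21.5% of all tested genes higher, 25.4% lower and 47.0% called in either direction. All 4 listed relatives of the guardians and effectors passed with LPS, 2 higher and 2 lower. Bcl2l2, which encodes the guardian BCL-W, rose by 1.41 (SE 0.26), while Bcl2l13 fell by 0.94 (SE 0.21) and Bcl2l12 fell by 2.31 (SE 0.65). In LPS replicate 1 Bcl2l12 was at the library's lowest value (-1.13), so the size of its fall depends in part on the floor. Bcl2a1c, a further A1 copy, was at the lowest value in 2 of the 3 untreated libraries and at 1.98, 2.19 and 2.68 with LPS. Of 8 other BH3-only genes and relatives 2 rose and 3 fell. Bbc3, which encodes PUMA, did not pass (0.12, adjusted p = 0.794, limma), nor did Pmaip1, which encodes NOXA (-1.11, adjusted p = 0.072, limma). Pmaip1 did pass as lower with LPS + BMS against untreated cells (-1.28, adjusted p = 0.0402, limma). Bnip3, a mitochondrial BH3-like protein that acts in mitophagy, rose by 1.73 (SE 0.27), and its relative Bnip3l fell by 1.01 (SE 0.17). Bmf fell by 3.21 (SE 0.77), from 1.92, 1.95 and 2.18 to -1.13, -2.33 and -0.11. LPS replicates 1 and 2 were at their libraries' lowest value, so the size of that fall depends on the floor. Bik rose by 2.40 (SE 0.64), also at low levels.

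In the list of apoptosome and caspase genes, Cycs, which encodes cytochrome c, rose by 1.35 (SE 0.17), and Casp2 fell by 1.65 (SE 0.29). Of 9 inhibitor of apoptosis genes 2 rose and 4 fell (21.5% and 25.4% of all tested genes). Birc3, which encodes the ubiquitin ligase cIAP2, rose by 2.92 (SE 0.14), and Naip5, a sensor of bacterial flagellin, fell by 1.74 (SE 0.23).

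In the death receptor list 7 of 11 rose and 0 fell (21.5% and 25.4% of all tested genes), with a median of 1.77. Traf1 rose by 4.46 (SE 0.14), the death receptor gene Fas by 4.34 (SE 0.32), Cflar by 3.14 (SE 0.11) and Traf2 by 1.77 (SE 0.22). Cflar, whose protein c-FLIP blocks caspase-8, thus reached 9.69 log2 CPM, above any member of the BCL2 family in mean level. Of 17 regulators of BCL2 family proteins 5 rose and 4 fell, close to the shares of all tested genes. The kinase gene Pim1 rose by 4.76 (SE 0.26) and Pim3 by 2.51 (SE 0.41). Foxo3, a transcription factor that can activate Bcl2l11, fell by 1.41 (SE 0.18), and Dynll2, a dynein light chain that binds BMF, fell by 1.09 (SE 0.14).

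With LPS + BMS against LPS alone, 1 gene of these 6 lists was called, where 2.12% of all tested genes were called. Naip2 was higher by 0.72 (SE 0.16; adjusted p = 0.0316, limma), at 5.71, 5.72 and 5.54 against 4.76, 5.02 and 5.02. Against untreated cells the death receptor list again had 7 higher and 0 lower of 11, and the inhibitor of apoptosis list 2 higher and 3 lower of 9. Of all tested genes 21.5% were higher and 25.6% lower in that comparison. Cflar was higher by 3.06 and Birc3 by 2.92, and Bmf was at -3.40.

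**Figure D5:**
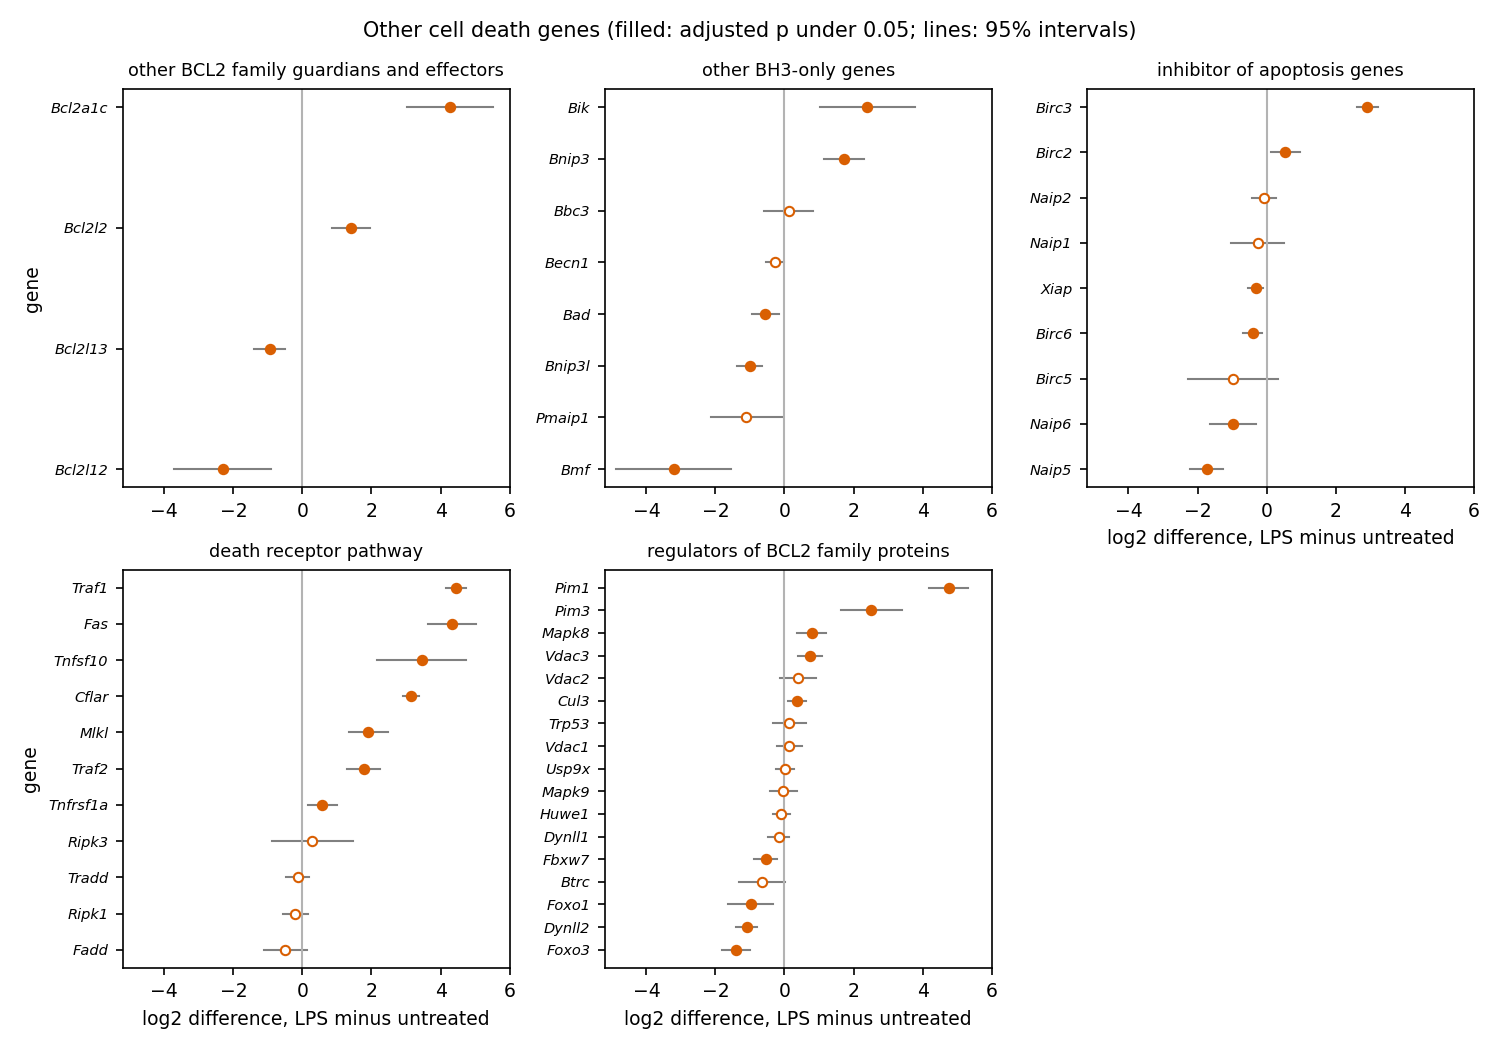
Log2 differences, LPS minus untreated (x axes), of the genes (y axes) of 5 of the 6 cell death lists, with 95% intervals as lines and filled points for an adjusted p under 0.05. In the death receptor panel 7 of 11 points are filled, all to the right of 0.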

How the data were processed

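Total RNA of 9 macrophage libraries (100 ng each) was made into 3′ end libraries with the QuantSeq forward kit and 16 PCR cycles, per the labels' protocols, with no molecular identifiers mentioned. Listed in the submitters' processing notes, without roles, are GRCm38 and the tools edgeR, limma, MultiQC, featureCounts 1.5.1 and STAR 2.5.2b. The values deposited by the authors, entered as a score, are log2 CPM, quantile-normalised; this was read from the values, whose powers of 2 sum to 987472 to 987498 in each library. A shift shared by most transcripts cannot be seen. Of 12204 identifiers 12181 matched a symbol. Genes with at least 0 log2 CPM in 3 libraries were tested (12196, all 10 members among them). One limma 3.58.1 model (R 4.3.3; a mean per group, mean trend, two-sided, Benjamini-Hochberg over tested genes) gave differences, moderated SE and calls, and was tested on simulated data. The spacing of the lowest distinct values (number 5 to number 40) gave an approximate depth per library; intervals and read numbers are approximate, since PCR copies are not independent molecules. The members and gene lists were chosen with earlier results of these data known. Named genes were the members, up to 4 called genes with the smallest p in each list, check genes and the 3 nearest genes of the 3 members with the largest LPS difference; Bcl2a1c, Bbc3, Pmaip1 and genes given for comparison were named after their values were seen. The list of apoptosome and caspase genes is not reported in full here. Alternatives were a replicate block, other filters, scalings, variance models and samples, and leaving out each library.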

Additional observations from a re-analysis of the deposited data

How the results depend on the processing

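The calls of the members with LPS held under every alternative run: Bcl2l1, Bcl2l11 and the 3 Bcl2a1 genes passed throughout. The number of members called with LPS was 5 to 8 when single libraries were left out, and 8 without LPS replicate 2 (5 higher, 3 lower). Against LPS alone, LPS + BMS gave 0 to 1 called members when single libraries were left out (1 without LPS replicate 1) and 2 with weights per library. The genes called in that comparison, 258, were 171 with ribosomal protein centring, 99 without a mean trend and 814 with weights per library, and 62 to 318 when single libraries were left out, with 160 without LPS replicate 3, 79, 143 and 62 without LPS + BMS replicates 1, 2 and 3. Small differences changed sign. Bak1 turned to 0.01 with weights per library. Without single libraries, Bax against untreated ran from -0.27 to 0.35 with LPS and from -0.37 to 0.20 with LPS + BMS, and against LPS from -0.38 to 0.13. Bak1 ran from -0.37 to 0.05 with LPS against untreated and from -0.23 to 0.20 with LPS + BMS against LPS, and Bcl2a1d in the latter from -0.08 to 1.08. Between paralogues, Bcl2a1b minus Bcl2a1a ran from -0.24 to 0.49 (LPS against untreated), -0.05 to 0.41 (LPS + BMS against LPS) and -0.03 to 0.70 (LPS + BMS against untreated), and Bcl2a1d minus Bcl2a1a from -0.01 to 1.25 (LPS against untreated). The cause was not tested.

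The labels do not say whether same-numbered libraries are paired, and with 3 libraries a group the values cannot decide it. Deviations of same-numbered libraries correlated at -0.30 to 0.01 (LPS and untreated), -0.01 to 0.17 (LPS + BMS and LPS) and -0.02 to 0.16 (LPS + BMS and untreated). In these comparisons 0, 3 and 3 of 6 libraries matched best with their own number. With a replicate block 5531, 208 and 5558 genes were called, against 5730, 258 and 5747, and 5, 0 and 4 members, as without it. The filter at 10 CPM removed Bcl2 and Bid. Depth limits Bcl2, Bid and the untreated Bcl2a1 values most, with down to about 2.62 reads.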
